A study of Mus musculus and Rattus norvegicus with 37 samples.

Results

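The genes described here are the cytochrome P450 4a (Cyp4a) omega-hydroxylases and the genes around peroxisome proliferator-activated receptor alpha (PPAR-alpha) in the liver. They were chosen by symbol, with earlier results of these comparisons known: Ppara, Ppargc1a, Vnn1, Creb3l3, Cyp4a10, Cyp4a14 and Cyp4a31 in mice, and Ppara, Ppargc1a, Vnn1, Creb3l3, Cyp4a1 and Cyp4a2 in rats. Of the 10 symbols listed, 7 were found among 47994 named genes of the mouse tables and 6 among 28660 named genes of the rat tables. Cyp4a2 named 2 entries in each rat table, which are given separately as entry 1 and entry 2 and make 7 entries in all, and no entry was named Cyp4a3.

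RNA-seq values came from 37 livers in 4 tables. The mice were fed female C57BL/6J animals killed on day 7 after one subcutaneous injection of saline or of LNA29, which is 2 locked nucleic acid (LNA) inhibitors, against miR-29a and against miR-29b and miR-29c, at 20 mg/kg each. The WT/floxed table pools 7 wild-type (WT) mice aged 9 to 11 weeks (4 LNA29, 3 saline) with 6 floxed mice aged 15 to 20 weeks (4 LNA29, 2 saline), after the authors left out 1 floxed saline mouse as an outlier. The second table holds 8 mice labelled SIRT1KO (4 LNA29, 4 saline), littermates of the floxed mice, aged 15 to 20 weeks, with Sirt1 deleted in the liver only by a driver not given in the sources used here. Saline was the only control, with no scrambled LNA. All rats were male Zucker animals. One rat table compares Fatty (fa/fa) with Lean rats at 5.5 months (4 each), and the other compares 3-month-old Fatty rats given BT2, an inhibitor of branched-chain ketoacid dehydrogenase kinase, with Fatty rats given its vehicle, dimethylsulfoxide (4 each), by intraperitoneal injection at 20 mg/kg BT2 a day for 7 days. Every animal of the BT2 table therefore carries fa/fa.

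PPAR-alpha is a nuclear receptor that binds fatty acids and, paired with a retinoid X receptor, switches on genes of fatty acid uptake and oxidation in the fasting liver. Omega-oxidation is a side route in which Cyp4a enzymes of the endoplasmic reticulum hydroxylate the far end of a fatty acid, after which dehydrogenases turn it into a dicarboxylic acid that peroxisomes shorten. Cyp4a genes and Vnn1, which encodes the pantetheinase vanin-1, are among the standard readouts of PPAR-alpha activity in rodents.

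The miR-29 sequences are shown because the inhibitors were aimed at them. Capitals mark the seed (bases 2 to 8), and the sequences and positions are from RefSeq on GRCm38.p6. miR-29a lies at chr6:31062673-31062694 on the minus strand and miR-29c at chr1:195037600-195037621 on the plus strand, while miR-29b is made at chr6:31063025-31063047 on the minus strand and at chr1:195037091-195037113 on the plus strand.
mmu-miR-29a-3p: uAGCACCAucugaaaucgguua
mmu-miR-29b-3p: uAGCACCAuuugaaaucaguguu
mmu-miR-29c-3p: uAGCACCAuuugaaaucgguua
The 3 mature sequences shared one seed.

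Ppargc1a was the only mouse member whose annotated 3′ UTR held the letters TGGTGCT, the match to that seed. The match lay at chr5:51454865-51454871 on the minus strand (GRCm38), from base 3309 of a 3′ UTR of 3930 bases, in the stretch below with the match in capitals.
Ppargc1a 3′ UTR: ggtacccgaacTGGTGCTttagaaatgcg
The share of members with a match was 14.3% (1 of 7), against 16.1% of the tested genes whose annotated 3′ UTR was searched (2114 of 13135). It was 13.3% (4 of 30) of the genes searched from a list of other PPAR-alpha targets. The search left out 1 chromosome. A match describes letters and is not a measured site.

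The 4 Cyp4a genes that share a stretch of mouse chromosome 4 were annotated at chr4:115486200-115496142 (Cyp4a14, minus strand), chr4:115518264-115533649 (Cyp4a10), chr4:115563649-115579015 (Cyp4a31) and chr4:115600969-115621602 (Cyp4a32, a neighbour that is no member and is named only for the sequence it shares), the last 3 on the plus strand. Reads were 100 bases long. In the longest coding transcripts, 12.7% of the 100-base words of Cyp4a10 and 8.22% of those of Cyp4a31 also occurred in another of these 4 genes. For Cyp4a14 the share was 0. Reads from the shared words of Cyp4a10, Cyp4a31 and Cyp4a32 could be divided between them by the quantification, so the values of Cyp4a10 and Cyp4a31 are uncertain. In WT/floxed saline mice Cyp4a10 averaged 35836 normalized counts and Cyp4a31 395. The share of words therefore does not bound the uncertainty of Cyp4a31, to which a few misassigned Cyp4a10 reads would matter more. The other members lie at chr15:85734983-85802819 (Ppara, plus strand), chr5:51454250-51567726 (Ppargc1a, minus), chr10:81084324-81098874 (Creb3l3, minus) and chr10:23894688-23905343 (Vnn1, plus). The span of Ppargc1a overlaps 4 annotated genes of unproven status, one of them on the opposite strand, and no other member overlaps an annotated gene.

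PPAR-alpha binds 2 copies of AGGTCA separated by 1 base (DR1, AGGTCANAGGTCA), and promoters were searched for it on both strands because the members are grouped by this receptor. RefSeq promoters of 300 bases were given for Ppara, Ppargc1a and Creb3l3, with 2 starts for Creb3l3. The search left out 1 chromosome. An exact DR1 was present in 0.0396% of the 32851 promoters searched, and a match with at most 2 mismatches in 3.86%. Among the 4 member promoters 1 held such a match, that of the inner start of Creb3l3 at chr10:81092542-81092841 on the minus strand (GRCm38.p6), at 209 bases before the start. The outer start of Creb3l3, Ppara and Ppargc1a held none. Among 28 promoters of the other PPAR-alpha targets 4 held one (14.3%), of which Fabp1 at chr6:71199629-71199928 on the plus strand, which encodes the liver fatty acid carrier, came closest with 1 mismatch. Capitals mark both matches, that of Fabp1 being on the opposite strand.
Creb3l3 inner promoter: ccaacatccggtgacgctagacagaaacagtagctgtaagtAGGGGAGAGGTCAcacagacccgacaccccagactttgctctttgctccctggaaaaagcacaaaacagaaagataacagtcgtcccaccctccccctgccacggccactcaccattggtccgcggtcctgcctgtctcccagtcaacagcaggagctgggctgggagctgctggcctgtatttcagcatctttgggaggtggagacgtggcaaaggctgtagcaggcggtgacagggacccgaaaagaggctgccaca
Fabp1 promoter: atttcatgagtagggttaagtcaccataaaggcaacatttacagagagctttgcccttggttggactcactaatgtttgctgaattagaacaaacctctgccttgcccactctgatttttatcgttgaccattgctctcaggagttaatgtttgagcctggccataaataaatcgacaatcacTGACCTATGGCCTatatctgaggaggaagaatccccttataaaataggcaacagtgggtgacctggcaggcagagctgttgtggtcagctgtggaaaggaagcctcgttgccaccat
No binding was measured in these libraries.

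The mouse libraries held an estimated 42.6 to 78.0 M reads. The rat libraries held 0.188 to 58.5 M, a ratio of 310, and 6 of 16 were under 1 M (Lean replicates 3 and 4, Fatty replicate 3, vehicle replicate 4 and BT2 replicates 1 and 4), where 1 read was worth up to 10.5 normalized counts. In every mouse group the 5 hepatocyte markers named in the tables had a mean log2 level of 18.8 to 19.0, while the 6 cholangiocyte markers lay between 7.27 and 7.69. Sirt1 had 586 ± 30.6 (SD, n = 4) normalized counts in the saline mice labelled SIRT1KO and 591 ± 81.2 (SD, n = 5) in WT/floxed saline mice. These 2 tables were normalized apart, and a value for a whole gene does not show a deleted exon, so the label could not be checked from these values. The authors measured hepatic Sirt1 in both genotypes by RT-qPCR, which is not part of these data. The livers are bulk tissue, in which fewer cells of a type and less RNA per cell cannot be told apart.

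Per kilobase of its longest coding transcript, Cyp4a14 had the highest level of the members in WT/floxed saline mice, at 23346 ± 5621 normalized counts (SD, n = 5). Cyp4a10 followed at 16992 ± 4193, Creb3l3 at 6530 ± 1203, Vnn1 at 1406 ± 448, Ppara at 775 ± 158, Cyp4a31 at 158 ± 36.7 and Ppargc1a at 82.9 ± 30.4. The ranges of Cyp4a14 and Cyp4a10 overlapped, as did those of Cyp4a31 and Ppargc1a, while the other neighbours in this order did not overlap. The 3 Cyp4a genes thus spanned the order from its top to near its bottom.

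The comparison of LNA29 with saline in WT/floxed mice asks what loss of miR-29 does to these genes in livers with Sirt1. The members' values in the LNA29 comparisons of both mouse tables and in both rat comparisons were known when they were chosen. They are therefore described without a test. A mouse gene is called here when p is under 0.05, the Benjamini-Hochberg adjusted p under 0.2, the mean over 50 and the fold over 1.2 in limma, which 688 of 15827 genes met (4.35%). Of the 7 members 1 was called, Cyp4a31, and none had groups that did not overlap, against 1.51% of all genes.

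Cyp4a31 encodes a close relative of the Cyp4a10 enzyme, and how many of its reads came from Cyp4a10 was not tested. Its normalized counts in the saline mice ran from 269 to 501 with a median of 395, and in the 8 LNA29 mice from 444 to 1388 with a median of 797. Saline mice averaged 395 ± 92.0 (SD, n = 5) and LNA29 mice 828 ± 343 (SD, n = 8), which put the log2 fold change at 0.99 (SE 0.27, 95% interval 0.41 to 1.56) on the log2(value + 1) scale used throughout. The lowest LNA29 mouse, replicate 4, lay below the 2 highest saline mice. Within the 3 flow cells the difference was 0.96, 1.14 and 1.07. Without saline replicate 2, the lowest mouse, it was 0.86 and no longer called. Both backgrounds are seen at the top, since the highest mouse was floxed and the next 2 were WT.

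Cyp4a14, the most expressed of the 3, had 59570, 57407, 36375, 62875 and 75136 normalized counts in saline replicates 1 to 5, of which 2 and 5 were floxed. The 8 LNA29 mice ran from 43683 to 129083 with a median of 62691. The groups overlapped widely, and 1 WT mouse, LNA29 replicate 2, stood above the rest. The log2 fold change was 0.28 (SE 0.25, 95% interval -0.26 to 0.82). Cyp4a10 looked alike, with 24256 to 44614 in saline mice, 31365 to 94488 in LNA29 mice and a log2 fold change of 0.25 (SE 0.25). The same LNA29 replicate 2 held the highest value.

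Vnn1 ran from 2316 to 4713 in saline mice (median 2923) and from 1572 to 8229 in LNA29 mice (median 3320), with a log2 fold change of -0.12 (SE 0.34). Its sign turned when LNA29 replicate 3 or 5 or saline replicate 4 was left out. The groups overlapped, and the 95% interval of -0.86 to 0.61 spanned a difference in either direction. LNA29 replicate 2 was again highest. Of the regulators, Creb3l3, which encodes the liver transcription factor CREB-H, had 14980 ± 2760 normalized counts with saline and 17723 ± 2912 with LNA29 (0.25, SE 0.13). Ppara had 2645 ± 538 and 3082 ± 707 (0.22, SE 0.16). Ppargc1a, which encodes the coactivator PGC-1-alpha and holds the seed match above, had 536 ± 196 and 413 ± 101 (-0.33, SE 0.22, 95% interval -0.79 to 0.14). All 3 overlapped between the groups.

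**Figure D1:**
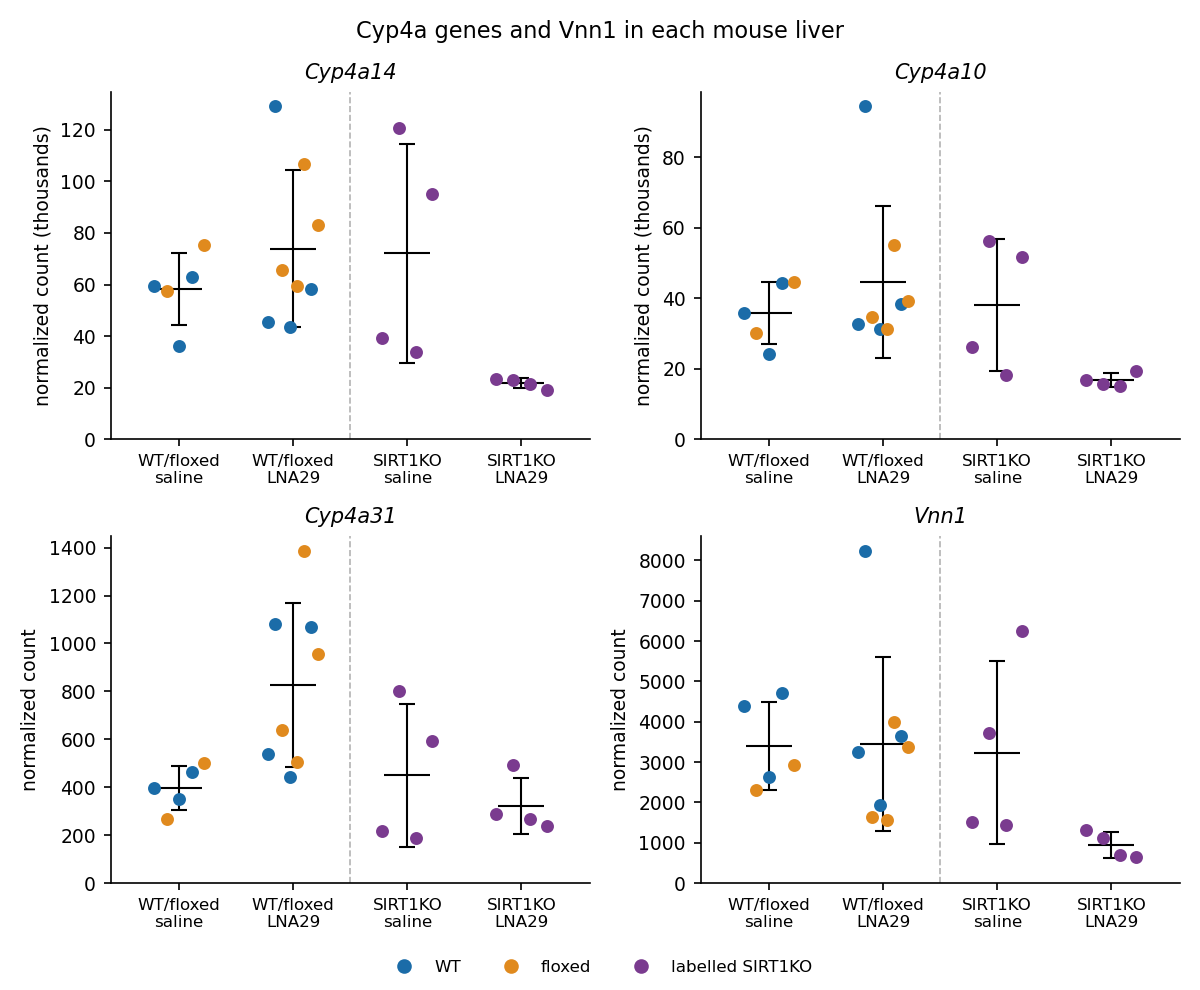
Normalized counts of Cyp4a14, Cyp4a10, Cyp4a31 and Vnn1 in each of 21 mouse livers by table and treatment, with the dashed line between the 2 tables, which were normalized apart. Points are mice coloured by background, and black marks are the mean and SD. In the mice labelled SIRT1KO the 4 LNA29 livers lay together at 19118 to 23514 for Cyp4a14, below all 4 saline livers, which spread from 33852 to 120452.

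Among the 30 tested genes of a list of 31 other PPAR-alpha targets, 1 was called higher and 0 lower in the same comparison, with a median log2 fold change of 0.07 beside 0.0017 over all genes, and 12 of 30 were negative beside 49.5% of all genes. The called gene was Fgf21, the fasting hormone, at 307 ± 238 (SD, n = 8) against 87.5 ± 73.5 (SD, n = 5), with a difference of 1.90 (log2, SE 0.62, limma adjusted p = 0.171). Its call was lost when any of LNA29 replicates 5 to 8 or saline replicates 2 to 5 was left out. Fgf21 is also in the list of CREB-H and vanin relatives (10 tested, no other called). Of 15 partners and coregulators 1 fell, Rxrg, a partner receptor of PPARs (log2 fold change -0.48, SE 0.12, adjusted p = 0.069). Of 11 other Cyp4 genes 1 fell, Cyp4f14, which acts on long fatty acids and leukotrienes (-0.37, SE 0.08, adjusted p = 0.0303). Of 10 genes for the steps after omega-hydroxylation 0 were called. Cyp4a32 was not called, with 903 ± 210 normalized counts against 718 ± 154 (0.33, SE 0.18).

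Genes that follow feeding moved in the same livers. Of 7 feeding genes 3 fell, with a list median of -0.71, led by Thrsp (-1.63, SE 0.38, adjusted p = 0.051) and Elovl6 (-0.93, SE 0.21, adjusted p = 0.0392), both of fatty acid synthesis. Of 7 fasting genes Fgf21 rose and Tat, a tyrosine-degrading enzyme, fell (-0.48, SE 0.13, adjusted p = 0.0994), with a list median of 0.86. LNA29 replicate 2, the mouse with the highest Cyp4a14 and Cyp4a10, had the highest mean log2 level of the PPAR-alpha targets (13.5) and the lowest of the feeding genes (11.1) among the 13 mice. The part of feeding state in the members' values was not tested. Of clock genes, Nfil3 (high at dawn) rose by 0.36 (adjusted p = 0.124) and 0 of 7 dusk genes were called. Of the cell type lists, Apoa1 rose among hepatocyte markers (0.51, adjusted p = 0.0312) and Lyve1 fell among 6 endothelial markers (-0.51, adjusted p = 0.165), and 0 macrophage, stellate cell, cholangiocyte, red blood cell, pancreatic or adipocyte markers were called.

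The same comparison in mice labelled SIRT1KO asks whether the response needs hepatic Sirt1. Of 15901 genes 292 were called (1.84%), 106 of them lower with LNA29 (0.667%), and 6.95% of all genes had groups that did not overlap. Of the 7 members 1 was called, Cyp4a14, and 2 had groups that did not overlap, Cyp4a14 and Vnn1.

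Cyp4a14 had 39367, 120452, 33852 and 95016 normalized counts in saline replicates 1 to 4. It had 23514, 22941, 21455 and 19118 in LNA29 replicates 1 to 4. The saline livers fell into a high pair (replicates 2 and 4) and a low pair, and all LNA29 livers were below the lower pair. The log2 fold change was -1.53 (SE 0.37, 95% interval -2.35 to -0.70), with 2.88 times more in saline mice, and it was -2.49, -0.76 and -1.57 within the 3 flow cells, which held 2 to 3 mice each. The call was lost with the flow cell as a covariate (-1.53) and without any one of LNA29 replicates 2, 3 and 4 or saline replicates 2 and 4, where the value lay between -1.55 and -1.21. It was kept without LNA29 replicate 1 or saline replicates 1 or 3.

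Vnn1 had 1526, 3710, 1435 and 6237 normalized counts with saline. With LNA29 it had 1324, 1122, 698 and 659. The same saline replicates 2 and 4 were high, and the lowest saline mouse was only just above the highest LNA29 mouse. The log2 fold change was -1.55 (SE 0.46, 95% interval -2.57 to -0.53) and was not called. Within the flow cells it was -2.41, -0.32 and -2.18.

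Cyp4a10 had 26124, 56138, 18269 and 51649 normalized counts with saline. With LNA29 it had 16883, 15684, 15121 and 19497, so that the highest LNA29 mouse lay above the lowest saline mouse. The log2 fold change was -1.04 (SE 0.32, 95% interval -1.76 to -0.32) and was not called. Cyp4a31 had 450 ± 298 normalized counts with saline and 322 ± 116 with LNA29, a log2 fold change of -0.27 (SE 0.46) that became 0.09 without saline replicate 2. Its 2 high saline mice were again replicates 2 and 4, at 802 and 593, beside 217 and 188.

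The regulators overlapped between the groups. Creb3l3 had 12467, 21365, 13655 and 22953 normalized counts with saline and 11147, 14513, 14031 and 13917 with LNA29 (-0.35, SE 0.20). Ppara had 2556 ± 416 and 2266 ± 554 (-0.19, SE 0.18), and Ppargc1a 394 ± 118 and 360 ± 93.3 (-0.11, SE 0.26). Creb3l3 was thus higher in the same pair of saline mice as the Cyp4a genes, and Ppargc1a was not.

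Of the 30 other PPAR-alpha targets tested, 6 fell and 0 rose, beside 0.667% of all genes called lower. The list median was -0.55 beside -0.0028 over all genes, and 29 of 30 were negative beside 50.5% of all genes. The 2 with the largest called change were Acot3, a peroxisomal acyl-CoA thioesterase, at 3953 ± 1823 against 9099 ± 2267 (-1.31, SE 0.34, adjusted p = 0.192), and Decr1, a mitochondrial enzyme for unsaturated fatty acids, at 8847 ± 359 against 13562 ± 2403 (-0.60, SE 0.12, adjusted p = 0.0964). None of the 6 overlapped between the groups, which adds little, since they were picked by their calls in these same mice. Fgf21, named here after its value was seen because it rose in WT/floxed mice, had 58.7 ± 27.0 normalized counts with LNA29 and 447 ± 425 with saline (-2.51, SE 0.74, adjusted p = 0.247), with no overlap and no call. The count of 6 was 1 without LNA29 replicate 2, 3 or 4 or saline replicate 2, 2 without saline replicate 4, 15 without saline replicate 1, 1 with the flow cell as a covariate and 0 at an adjusted p under 0.05. The count over all genes moved alongside it, from 292 to 85, 87 and 77 without LNA29 replicates 2, 3 and 4, to 165, 132 and 426 without saline replicates 2, 4 and 1, to 103 with the flow cell and to 37 at an adjusted p under 0.05.

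**Figure D2:**
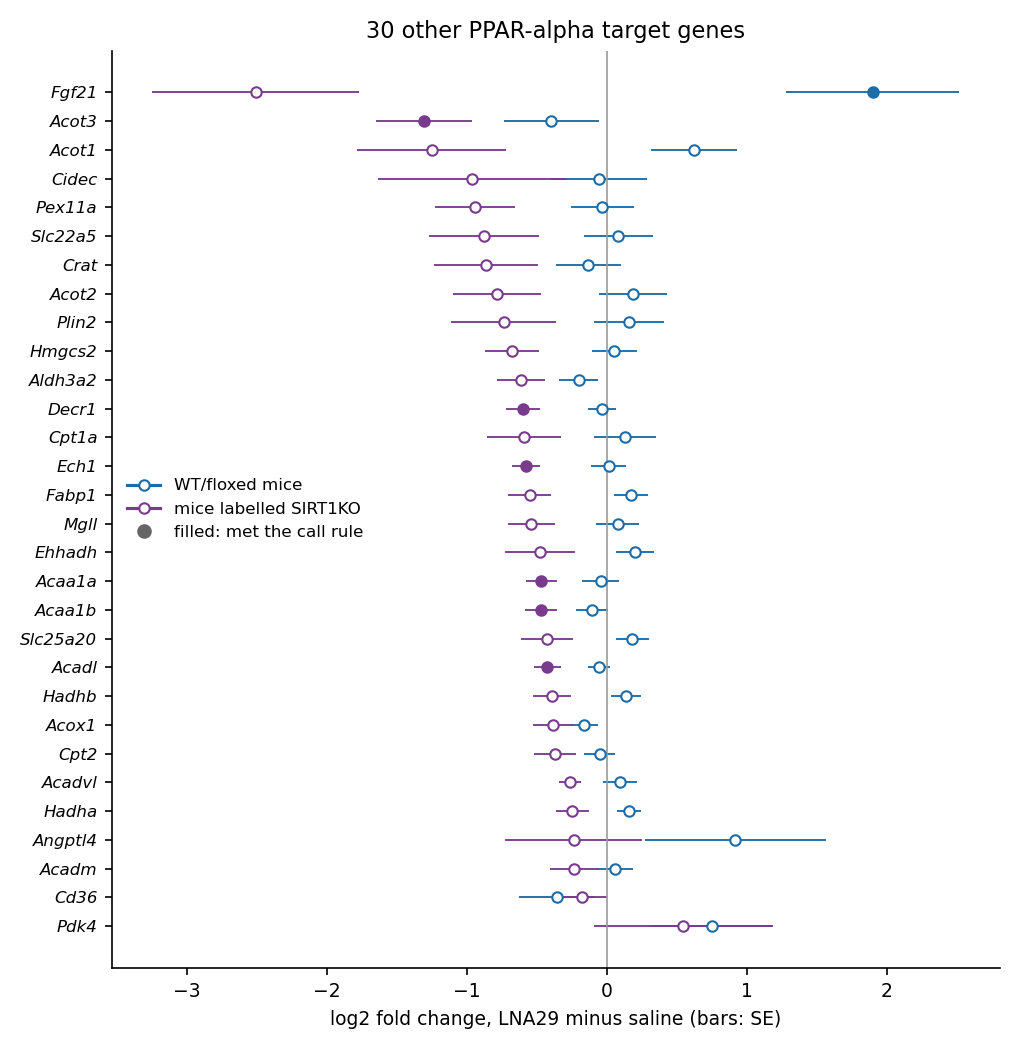
Log2 fold change of LNA29 against saline (x axis, bars are SE) for the 30 tested PPAR-alpha target genes that are not members, with one colour for WT/floxed mice and another for mice labelled SIRT1KO. Filled points met the call rule. In the mice labelled SIRT1KO 29 of 30 points lie left of 0, with a median of -0.55, and in WT/floxed mice 12 of 30.

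The high and low pairs of saline mice labelled SIRT1KO also differed in other lists. Replicates 2 and 4 had mean log2 levels of 13.3 and 13.4 for the PPAR-alpha targets and 12.5 and 12.1 for the feeding genes. Replicates 1 and 3 had 12.5 and 12.4 for the targets and 13.6 and 13.5 for the feeding genes. The 4 LNA29 mice had 12.2 to 12.4 for the targets and 12.1 to 12.99 for the feeding genes. Saline replicate 3 stood apart in clock genes, at 10.95 for dusk genes where the other 7 mice had 7.66 to 8.67, and at 8.96 for dawn genes where they had 10.3 to 11.1. The LNA29 mice thus had both lists below the low saline pair. Of 7 fasting genes 2 rose, Igfbp1 (1.19, SE 0.21, adjusted p = 0.0604) and G6pc (0.75, SE 0.12, adjusted p = 0.0539), while of 7 feeding genes 0 were called (median -0.40), and 0 of 7 dusk genes (median -0.90) and 0 of 4 dawn genes (median 0.89) were. The part of feeding state and time of day in the members' values was not tested.

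Apoc2, an apolipoprotein that activates lipoprotein lipase, was the only one of 10 CREB-H and vanin relatives to be called (-0.46, SE 0.08, adjusted p = 0.0604). None of 15 partners, 10 other Cyp4 genes and 10 genes of later omega-oxidation steps were called, with medians of -0.06, -0.10 and -0.22. Cyp4a32 had 488 ± 201 against 661 ± 264 (-0.42, SE 0.33). Among other cell types Clec4f, of Kupffer cells, fell by 0.29 (adjusted p = 0.19) and Lyve1, of sinusoidal endothelium, fell by 1.17 (adjusted p = 0.115). The summed level of the 6 macrophage markers was 8696 to 11094 with LNA29 and 10603 to 12900 with saline, and that of the 6 endothelial markers 9852 to 10884 and 9906 to 11491, with no marker at 0. The summed level of the 5 adipocyte markers was 53505 and 47535 in saline replicates 2 and 4, the mice with high Cyp4a14, 118320 and 133330 in replicates 1 and 3, and 133310 to 168520 with LNA29. Nearly all of it was Car3, a carbonic anhydrase that hepatocytes also make, while Adipoq was at 0 to 150.1 with saline and 0 to 35.99 with LNA29, and Adipoq, Plin1, Lep and Cfd each had a mouse at 0 in both groups. The part of these lists in the members' values was not tested. Of the markers of the other 6 cell types, adipocytes included, 0 were called.

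Whether the response differed between the genotypes was fitted over all 21 mice, as the LNA29 effect in mice labelled SIRT1KO minus that in WT/floxed mice. At an adjusted p under 0.2, 7 of 15617 genes were called (0.0448%), and 1428 had an unadjusted p under 0.05. None of the 7 members was called. The difference on the log2 scale was -1.81 for Cyp4a14 (95% interval -2.78 to -0.84), -1.43 for Vnn1 (-2.69 to -0.17), -1.29 for Cyp4a10 (-2.18 to -0.39) and -1.26 for Cyp4a31 (-2.37 to -0.15). It was -0.60 for Creb3l3 (-1.10 to -0.10), -0.41 for Ppara (-0.96 to 0.14) and 0.22 for Ppargc1a (-0.53 to 0.97). Both LNA29 effects were known when the members were chosen, and these intervals are not adjusted for the number of genes. They are therefore a description and not a test. Those of the Cyp4a genes, Vnn1 and Creb3l3 lay below 0, while those of Ppara and Ppargc1a spanned it. The Ppargc1a value became -0.13 with floxed mice only and -0.01 without saline replicate 1 of the mice labelled SIRT1KO. Of the 30 PPAR-alpha targets 0 were called and 16 had an unadjusted p under 0.05. Their median was -0.61 beside 0.0024 over all genes, and 29 were negative beside 49.7% of all genes. Leaving out 1 mouse moved the members called from 0 to between 0 and 2, the targets to between 0 and 5 and all genes called from 7 to between 0 and 232, with all 3 highest without saline replicate 3 of the mice labelled SIRT1KO. Without WT/floxed LNA29 replicate 1 there were 200 genes, 1 member and 3 targets, and without LNA29 replicate 4 there were 89, 1 and 2. With floxed mice only, 69 genes were called, with 0 members and 1 target.

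The floxed and WT mice of the WT/floxed table give a comparison by background, fitted with treatment as a covariate. The rule for the members did not name it, but its mice are those of the LNA29 comparison. Members and tests were chosen with earlier results of these data known, so its calls of members are given as a description. Floxed mice were also older, and the LNA study was run at 2 sites, so background, age and site cannot be told apart. Of 15827 genes 2332 were called (14.7%), 1183 of them lower in floxed mice (7.47%). Of the 7 members 2 were called, both lower.

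Ppargc1a was the lower of these. It had 683, 778 and 530 normalized counts in the WT saline mice and 610, 435, 484 and 363 in the WT LNA29 mice. The floxed mice had 360 and 329 with saline and 313, 307, 436 and 356 with LNA29. The ranges overlapped only through 1 floxed mouse, LNA29 replicate 6, and 2 WT mice treated with LNA29. The means were 350 ± 47.4 (SD, n = 6) in floxed and 554 ± 145 (SD, n = 7) in WT mice, which is a log2 fold change of -0.60 (SE 0.15, 95% interval -0.92 to -0.29, limma adjusted p = 0.0349). The call was kept whichever of the 13 mice was left out and lost in the 8 LNA29-treated mice alone, where calls over all genes fell from 2332 to 174. Ppara had 2560 ± 576 in floxed and 3217 ± 604 in WT mice (-0.37, SE 0.13, 95% interval -0.65 to -0.08, adjusted p = 0.106), and its call was lost without floxed saline replicate 2 (-0.27) or floxed LNA29 replicate 3 (-0.34).

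The other members were not called. Creb3l3 was at -0.25 (adjusted p = 0.185, fold below 1.2) and Vnn1 at -0.58 (adjusted p = 0.255). Cyp4a14 was at 0.32 (95% interval -0.19 to 0.84, adjusted p = 0.42), Cyp4a10 at -0.06 (-0.59 to 0.47, adjusted p = 0.906) and Cyp4a31 at 0.05 (-0.53 to 0.63, adjusted p = 0.922). Of the 30 other PPAR-alpha targets 7 fell and 0 rose in floxed mice, beside 7.47% of all genes called lower, with a median of -0.14 beside -0.0090 over all genes. The largest falls among those called were in Angptl4, an inhibitor of lipoprotein lipase, at 4484 ± 3705 against 11063 ± 1596 (-1.93, SE 0.40, adjusted p = 0.0223), and in Pdk4, which restrains pyruvate oxidation, at 2011 ± 1332 against 3320 ± 1590 (-0.94, SE 0.36, adjusted p = 0.123). The count was 11 without LNA29 replicate 1 or 4 and 4 without LNA29 replicate 3 or saline replicate 5, where all genes called were 2646, 2059, 1582 and 1410 in that order, and 1 in the LNA29-treated mice alone.

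**Figure D3:**
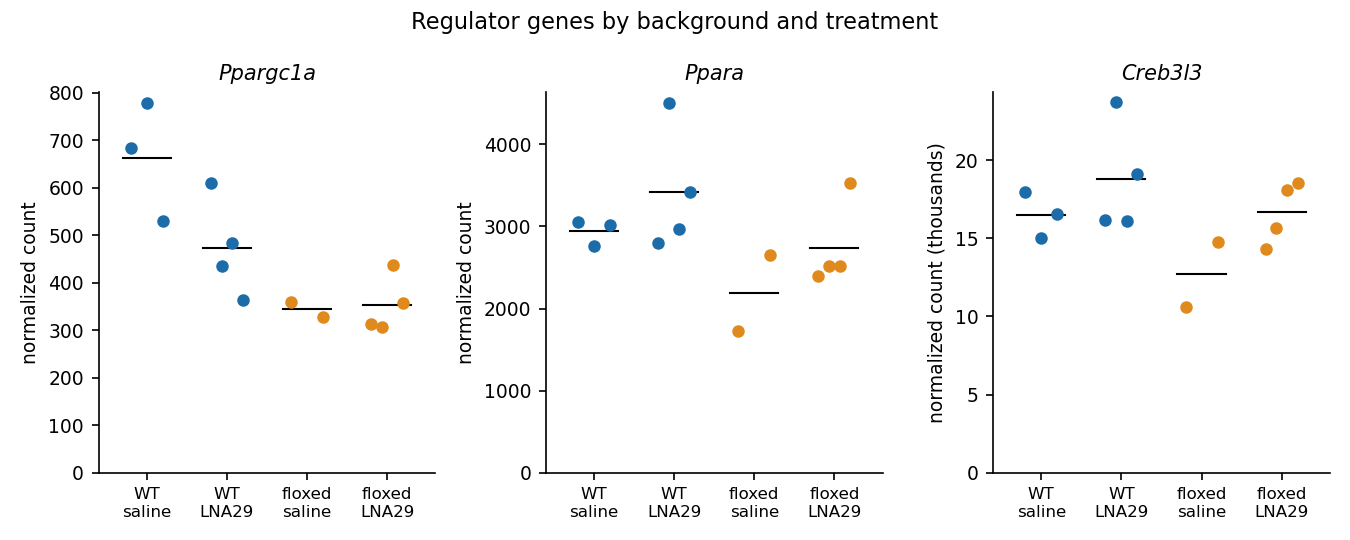
Normalized counts of Ppargc1a, Ppara and Creb3l3 in each WT and floxed mouse by treatment, with points for mice and lines for means. Ppargc1a was at 307 to 436 in the 6 floxed mice and at 363 to 778 in the 7 WT mice.

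Within the 4 mouse groups, the members varied together in part. Over 21 livers, with log2 values centred on their group means, Pearson's r with Cyp4a10 was 0.91 for Cyp4a14, 0.80 for Vnn1 and -0.02 for Ppargc1a, and r was 0.84 between Cyp4a31 and Cyp4a14, 0.78 between Creb3l3 and Vnn1 and 0.75 between Ppara and Vnn1. The 5 genes most like Cyp4a10 among 12765 with a mean over 50 were Acot8 (r = 0.96), Slc25a20 (0.93), Decr1 (0.91), Cyp4a14 (0.91) and Cpt2 (0.90). The points share library and flow cell effects, and WT and floxed mice were centred together. The r of Ppargc1a was -0.15 with Cyp4a14, 0.07 with Cyp4a31, 0.23 with Vnn1, 0.33 with Ppara and 0.41 with Creb3l3, so that it was near 0 with the Cyp4a genes and higher with the other regulators. Between floxed and WT mice, Ppargc1a, Ppara and Creb3l3 differed by -0.60, -0.37 and -0.25 (log2). Cyp4a14, Cyp4a10 and Cyp4a31 differed by 0.32, -0.06 and 0.05. The part of background in these r values was not tested.

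In rats, the comparison of Fatty with Lean animals asks how obesity alters these genes. A rat gene is called when its adjusted p is under 0.05. This was met by 376 of 8765 genes (4.29%), and 14.4% had groups that did not overlap. Of 6 tested member entries 1 was called and 1, the same, had groups that did not overlap. Ppargc1a was below the minimum mean of 10 in both rat tables, at 2.83, 9.41, 4.18 and 3.11 normalized counts in Fatty rats and 8.58, 6.82, 0 and 0 in Lean rats, where both zeros came from libraries under 1 M reads. Fitted without a minimum mean, its log2 fold change was 0.88 with overlapping groups.

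Vnn1 had 26.4, 26.0, 21.1 and 10.4 normalized counts in Lean replicates 1 to 4. In Fatty replicates 1 to 4 it had 36.7, 60.01, 75.2 and 51.3. All Fatty rats were above all Lean rats. In Lean replicates 3 and 4 these values stood for 2 reads and 1 read. The means were 55.8 ± 16.1 (SD, n = 4) and 20.97 ± 7.42 (SD, n = 4), which gave a log2 fold change of 1.405 (SE 0.34, 95% interval 0.65 to 2.16) beside a median of 0.07 over all genes. Without the libraries under 1 M reads the value was 0.86 and not called, and it was 1.99 and 0.82 within the 2 flow cells. It was 0.79 with sample quality weights and 0.84 with weights from the reads, called in both. Among the fits without 1 rat it was called in 1 of 8, that without Lean replicate 4, over values of 1.12 to 1.59.

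The Cyp4a genes overlapped between Fatty and Lean rats. Cyp4a1, the classic clofibrate-induced omega-hydroxylase, had 177, 308, 227 and 267 normalized counts in Fatty and 163, 250, 263 and 153 in Lean rats (0.25, SE 0.23, 95% interval -0.26 to 0.76). Cyp4a2 entry 1 had 425 ± 45.3 and 492 ± 147 (-0.17, SE 0.20), and entry 2 had 335 ± 167 and 402 ± 119 (-0.33, SE 0.34). Summed, as an alternative chosen after the data were seen, both Cyp4a2 entries gave -0.22. Ppara had 32.2 ± 17.3 and 36.98 ± 10.02 (-0.29, SE 0.35), and Creb3l3 619 ± 22.8 and 667 ± 63.3 (-0.10, SE 0.10). None of these 5 entries was called.

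Of 27 other PPAR-alpha targets tested between Fatty and Lean rats, 2 rose and 1 fell, with a median of 0.19. They were Cd36, a fatty acid transporter, at 299 ± 65.1 against 91.1 ± 22.5 (1.71, SE 0.22, adjusted p = 0.00259), Acadm, the medium-chain acyl-CoA dehydrogenase, at 946 ± 119 against 1379 ± 142 (-0.55, SE 0.12, adjusted p = 0.0322), and Aldh3a2, the fatty aldehyde dehydrogenase, named here after its value was seen (0.46, SE 0.10, adjusted p = 0.0355). The count was 1 without any one of Lean replicates 1 and 3 and Fatty replicates 1 to 4. Aldh3a2 also acts after omega-hydroxylation, and in that list of 9 tested genes Adh1, an alcohol dehydrogenase, rose (0.89, adjusted p = 0.0106) and Acsl1, an acyl-CoA synthetase, fell (-0.47, adjusted p = 0.022). Of 9 other Cyp4 genes 1 fell, Cyp4f1 (-0.94, SE 0.10, adjusted p = 0.000819). Of 10 CREB-H and vanin relatives 1 rose, the apolipoprotein gene Apoa4 (0.75, adjusted p = 0.0319), and 2 fell, of which Apoa5 moved furthest (-1.11, adjusted p = 0.00181). Of 11 partners 0 were called.

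Other lists moved further between these rats. Of 6 feeding genes 3 rose, led by Pnpla3 (4.00, adjusted p = 7.41e-06) and Fasn (2.66, adjusted p = 1.55e-05). Of 6 dusk clock genes 3 rose, led by Dbp (5.01, adjusted p = 0.00924) and Per3 (4.30, adjusted p = 0.0184), and of 4 dawn genes 2 fell, Npas2 (-3.65, adjusted p = 0.0164) and Arntl (-2.46, adjusted p = 0.0155). None of 7 fasting genes was called. The summed level of the 6 stellate cell markers was 216 to 325 in Fatty and 161 to 181 in Lean rats with no marker called or at 0, and that of the 5 adipocyte markers 115 to 238 and 1391 to 3151, where Car3 fell (-3.85, adjusted p = 0.000297). Stab2, of endothelium, rose (1.16, adjusted p = 0.0327), Cela1, a pancreatic elastase, fell (-2.18, adjusted p = 0.0275), and 4 of 6 hepatocyte markers were called, 1 higher and 3 lower, led by Cps1 (-0.58, adjusted p = 0.0489) and Tf (0.44, adjusted p = 0.0213). No macrophage, cholangiocyte or red blood cell marker was called. The part of time of day, feeding or these cells in the Vnn1 value was not tested.

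The BT2 comparison asks what this compound does in the obese rat liver. No gene of 8533 was called (0%), 343 had an unadjusted p under 0.05, and 2.98% had groups that did not overlap. Of the 6 tested member entries 2 had groups that did not overlap, Cyp4a1 and Cyp4a2 entry 1.

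Cyp4a1 had 185, 206, 161 and 90.1 normalized counts with vehicle. With BT2 it had 563, 445, 382 and 320. Every BT2 rat was above every vehicle rat. The lowest value, of vehicle replicate 4, stood for 8.73 reads. The means were 427 ± 104 (SD, n = 4) and 161 ± 50.5 (SD, n = 4), which gave a log2 fold change of 1.44 (SE 0.26, 95% interval 0.86 to 2.02) or 2.71-fold, which was 1.53 and 1.35 within the 2 flow cells, 1.17 without libraries under 1 M reads and 1.19 to 1.58 when 1 rat was left out. It was not called under any setting tried.

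Cyp4a2 entry 1 had 301, 418, 292 and 134 normalized counts with vehicle. With BT2 it had 573, 737, 538 and 566. The groups did not overlap, and the log2 fold change was 1.17 (SE 0.29, 95% interval 0.53 to 1.81), with 1.47 and 0.87 within the flow cells. Entry 2 had 321, 145, 94.9 and 111 with vehicle and 266, 274, 472 and 222 with BT2. Here vehicle replicate 1 lay above 3 of the 4 BT2 rats, and the log2 fold change was 0.99 (SE 0.36, 95% interval 0.19 to 1.78), with 1.65 and 0.32 within the flow cells. Neither entry was called, and summed they gave 1.09.

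The remaining members overlapped between BT2 and vehicle. Vnn1 had 28.5, 50.7, 32.1 and 16.3 normalized counts with BT2 and 25.6, 32.7, 18.3 and 10.3 with vehicle (0.54, SE 0.42, 95% interval -0.40 to 1.48). Creb3l3 had 764 ± 105 and 663 ± 31.1 (0.20, SE 0.12). Ppara had 11.7, 39.3, 10.2 and 23.7 with BT2 and 12.0, 29.8, 20.3 and 0 with vehicle, and its log2 fold change of 1.01 (SE 0.97) became -0.07 without vehicle replicate 4, the library at 0. Ppargc1a had 7.12, 6.67, 1.34 and 10.9 with BT2 and 3.05, 4.48, 0.917 and 0 with vehicle. Its log2 fold change without a minimum mean was 1.34, with 1 BT2 rat below 2 vehicle rats and the 0 in vehicle replicate 4, a library under 1 M reads.

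**Figure D4:**
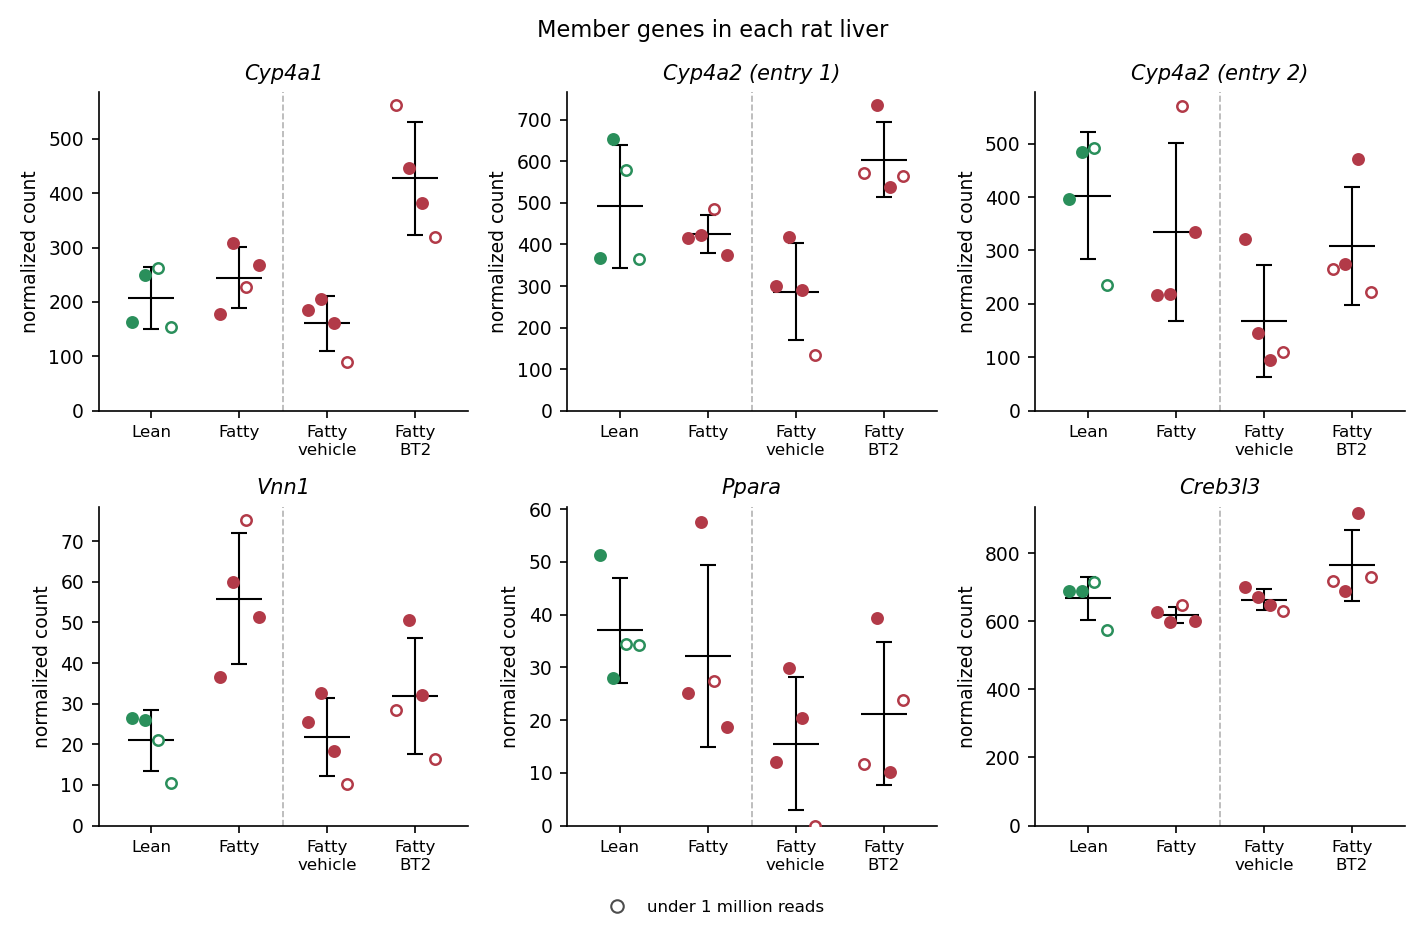
Normalized counts of 6 member entries in each of 16 rat livers, with the dashed line between the 2 tables, which were normalized apart. Points are rats, open where the library held under 1 M reads, and black marks are the mean and SD. Cyp4a1 was at 320 to 563 with BT2 and at 90.1 to 206 with vehicle.

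Of 27 other PPAR-alpha targets 0 were called with BT2, with a median of 0.11 and 6 negative beside 49.2% of all genes. None of 11 partners, 8 other Cyp4 genes, 9 genes of later steps and 10 CREB-H and vanin relatives were called. The feeding genes had a median of -0.64, the dusk genes -0.73, the dawn genes 1.02 and the fasting genes 0.19, again with 0 called, and 0 cell type markers were called. Vehicle replicates 3 and 4 had dawn gene levels of 3.77 and 4.40 (mean log2) where the other 6 rats had 5.39 to 6.19. The part of clock and feeding state in the Cyp4a1 value was not tested.

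Over the 16 rat livers, centred on their group means, the 5 genes most like Cyp4a1 among 3634 with a mean over 50 were Maoa (r = 0.91), Gatad2a (0.81), Tspan7 (0.80), Ppfibp1 (0.80) and Papd5 (0.80). The r of Cyp4a1 was 0.76 with Cyp4a2 entry 1, 0.34 with entry 2 and 0.68 with Vnn1. The points share library depth, which differed 310-fold. The 2 entries named Cyp4a2 had unlike r with Cyp4a1, and whether these r values differ was not tested.

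**Figure D5:**
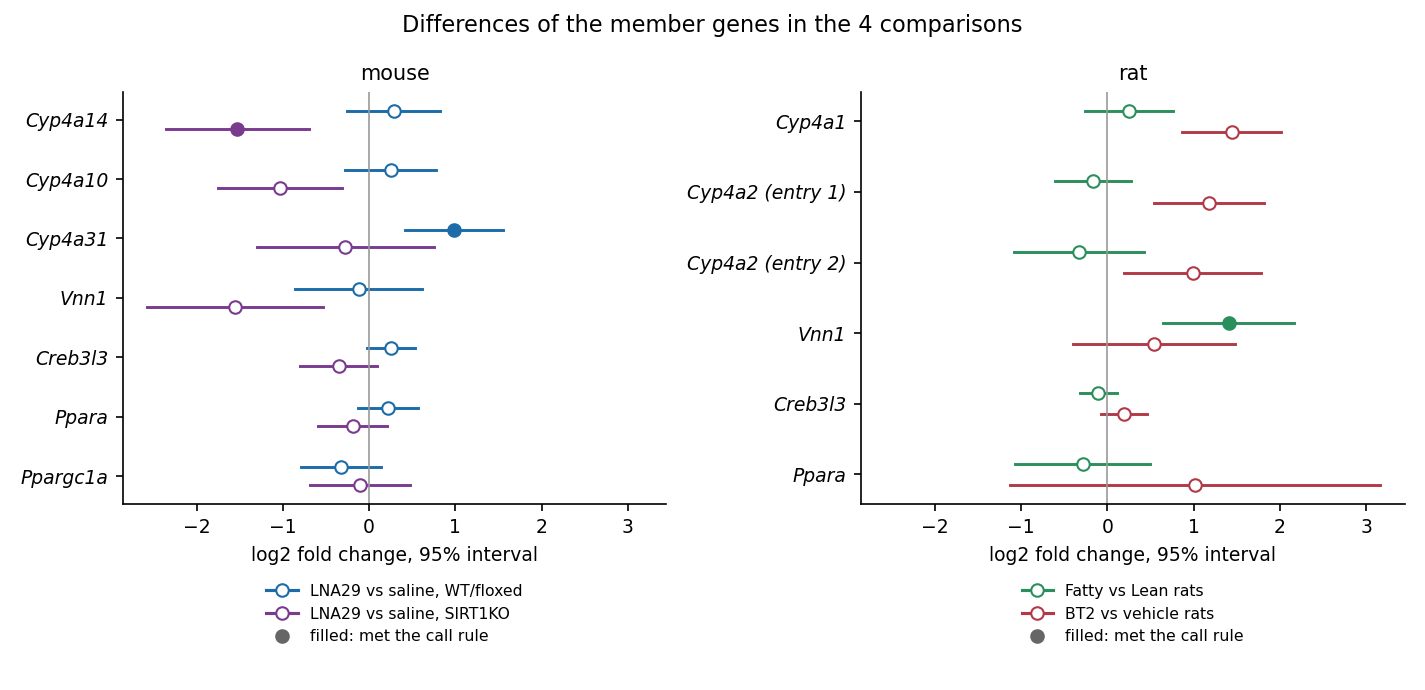
Log2 fold change with its 95% interval (x axis) for each tested member in the 4 comparisons, mouse at left and rat at right, LNA29 minus saline, Fatty minus Lean and BT2 minus vehicle. Filled points met the call rule, as a description, since the members were chosen with these values known. They were Cyp4a31 in WT/floxed mice, Cyp4a14 in mice labelled SIRT1KO and Vnn1 in Fatty rats. The BT2 intervals of Cyp4a1 (0.86 to 2.02) and Cyp4a2 entry 1 (0.53 to 1.81) lie right of 0 without a call.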

How the data were processed

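Poly(A)-selected liver RNA was sequenced single-end at 100 bases. The authors aligned reads with STAR (mm10 or rn6), estimated counts per gene with Salmon and scaled them with DESeq2 within each table, and this signal is what was deposited. Count models were not run, since whole reads could not be recovered. Library depth was the sum of the values divided by the most frequent value above 0. All columns matched a sample (0 unmatched). Entries without a name (381 in mouse, 201 in rat tables) held at most 0.0461% of a table and were left out, and entries sharing a name stayed separate.

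limma 3.58.1 in R 4.3.3 (lmFit, eBayes with trend) was fitted to log2(value + 1) for genes with a mean of at least 10, with Benjamini-Hochberg adjustment over all of them. The test was checked on simulated data. Each p-value sets a difference against the spread between the libraries of these tables. In rat libraries under 1 M reads that spread also holds read sampling. In WT/floxed mice it also holds background and age, except where background was a term. Alternatives were another pseudocount, no minimum mean, TMM scaling, quality or precision weights, the flow cell, background or replicate number as a term, other thresholds, and libraries left out. Entries of one name were summed in an alternative chosen after the data were seen. The members, lists and tests were chosen with earlier results of these data known. Named were every member, of each list the 2 called genes with the largest absolute log2 fold change, the 5 genes most like Cyp4a10 and Cyp4a1, and Sirt1. Promoters, 3′ UTRs and shared words were searched in Python 3.11.15 on GRCm38, leaving out 1 chromosome and leaving the files' coordinates unconverted. pandas 2.3.3, numpy 2.4.6 and matplotlib 3.10.9 were used.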

Additional observations from a re-analysis of the deposited data

Results flagged for a closer look

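Of 56 groups of member values looked at, 2 held a mouse far from the others, where chance flags about 1 in 20. Both were WT/floxed LNA29 replicate 2, a WT mouse. Its Cyp4a10 value was 94488 normalized counts, with the next of the 8 mice at 55085, and its Vnn1 value was 8229, with the next at 3993. Its Cyp4a14 value was also the highest of its group, at 129083. Without it, the log2 fold change of LNA29 against saline was 0.08 for Cyp4a10, 0.15 for Cyp4a14 and -0.33 for Vnn1, in place of 0.25, 0.28 and -0.12. For Cyp4a10 and Vnn1 these were the lowest values of the 13 fits that each left out 1 mouse, which ran up to 0.34 and 0.01.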

How the results depend on the processing

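In WT/floxed mice the 1 member called became 2 with sample quality weights and 0 with the replicate block or at an adjusted p under 0.05 (0 to 1 without single mice), and the 1 target called became 0 without a minimum mean, with the replicate block, with the flow cell or at an adjusted p under 0.05 and 2 with the background as a covariate (0 to 1). In mice labelled SIRT1KO the 1 member called became 3 with quality weights and 0 with the block, with the flow cell or at an adjusted p under 0.05 (0 to 3), and the 6 targets became 2 without a minimum mean, 23 with quality weights, 3 with the block, 1 with the flow cell and 0 at an adjusted p under 0.05 (1 to 15). In Fatty against Lean rats the 1 member called became 0 without a minimum mean, with TMM scaling, with the block, with the flow cell or without libraries under 1 M reads and 2 with quality weights (0 to 1), and the 3 targets became 6 with a pseudocount of 10, 1 without a minimum mean, 10 with quality weights, 1 with the block, 6 at an adjusted p under 0.2 and 8 with precision weights (1 to 3). With BT2 both counts stayed 0 in every setting (0 to 0). The genotype difference called 0 to 2 members and 0 to 5 targets without single mice, and 1 target with floxed mice only, beside 0 to 232 and 69 of all genes. Floxed against WT gave 0 members and 1 target in LNA29-treated mice only, with 1 to 4 and 4 to 11 without single mice, beside 174 and 1410 to 2752 of all genes (2332 with all mice). The cause was not tested.

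All genes called in WT/floxed mice (688) became 396 without a minimum mean, 1309 with quality weights, 55 with the block and 206 at an adjusted p under 0.05 (381 to 1005 without single mice). With the background as a covariate 988 were called. Those in mice labelled SIRT1KO (292) became 160, 802, 145 and 37, and 103 with the flow cell (77 to 426). Those in Fatty against Lean rats (376) became 230, 1179 and 228, with 966 at an adjusted p under 0.2 and 903 with precision weights (229 to 397). Of 730 log2 fold changes of members under an alternative 727 moved by less than the residual spread, and the 3 others were the Vnn1 values in Fatty rats given above. In the LNA29, Fatty and BT2 comparisons, leaving out 1 animal cannot move a value that far, so this share does not show stability. Ppara with BT2 counted as unmoved though it went from 1.01 to -0.07 without vehicle replicate 4. In 19 of the 730 the sign turned, each a member not called. Pairs of samples with one replicate number correlated at -0.28 to 0.24, so the numbers do not pair the samples, and the block changed the calls as given. Depth limits the rat values, where 1 read was worth up to 10.5 normalized counts.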
